A study of Homo sapiens and Canis lupus familiaris with 27 samples.

Results

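The genes described here encode, from nuclear DNA, the structural subunits of the 5 oxidative phosphorylation complexes of mitochondria. They were chosen by name alone: NDUFA, NDUFB, NDUFC, NDUFS and NDUFV genes with a number for complex I, SDHA to SDHD for complex II, 8 UQCR genes for complex III, 10 COX genes for complex IV and 15 ATP5 genes for complex V. Of the 25300 gene names in the tables, 74 belonged to this group, with 37 in complex I, 4 in complex II, 8 in complex III, 10 in complex IV and 15 in complex V. The tables of PC-3 and LNCaP list all 74. The table of the canine cell line CT1258 lists 49 of them, namely 29, 2, 8, 5 and 5 per complex, and the other 25, among them most of complex V, were not analysed here in the dog.

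RNA was sequenced from PC-3 cells, derived from a bone metastasis, and LNCaP cells, both human prostate carcinoma lines, and from CT1258 cells, a prostate carcinoma line of the dog. PDA-66, an indolylmaleimide, was given at 15 µM with exposure times of 12 h and 24 h, and controls had 0.15% DMSO, the vehicle, over 24 h, so that both PDA-66 groups of a line share 1 set of controls and the 12 h group has no control of its own duration. Each group had 3 samples, apart from PC-3 DMSO with 2, and 26 samples were used. Per the study's methods, 1 PC-3 DMSO sample was excluded as an outlier after the sequencing data had been plotted, and its counts were not available here. Each cell line is a single line in culture. The study's methods call the replicates of a condition independent biological ones, and the labels do not name the cultures.

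Oxidative phosphorylation moves electrons from NADH (complex I) and succinate (complex II) through complexes III and IV to oxygen, and complex V, the ATP synthase, uses the resulting proton gradient to make ATP. All complexes except complex II also hold subunits encoded by mitochondrial DNA, so nuclear and mitochondrial transcripts have to be made side by side. Nuclear respiratory factor 1 (NRF1), the ETS factor GABP, formerly NRF2, and YY1 are known to bind the promoters of many of these nuclear genes.

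The libraries of PC-3 held 14650839 to 18091755 counts each. Those of LNCaP held 11923105 to 14741883 and those of CT1258 held 7203534 to 20976950 counts, where the DMSO samples had on average 2.639 times the counts of the PDA-66 samples. Levels are given as CPM, the counts scaled to a common library size, after TMM normalization within each cell line, and a change is a log2 fold change. A gene was called a DEG at an edgeR adjusted p-value below 0.001. All 74 genes passed the filter on low counts in both human lines. In CT1258, 47 did, and UQCRB and NDUFC1 did not. Of the luminal prostate markers, KLK2 was at 0 counts in PC-3 and TMPRSS2 at 0 in CT1258, whereas both were counted in LNCaP. In CT1258, the 3 fibroblast markers listed summed to between 262 and 322 CPM in DMSO samples and between 333 and 429 CPM after PDA-66. Only LUM of these 3 passed the filter on low counts. Of 5 epithelial markers, 1 was listed in CT1258, at no more than 0.262 CPM. The part of these markers in the results was not tested. Of the 74 genes, 48 have pseudogenes of their name, among them ATP5G1 with 8, COX6A1 with 7, SDHA with 6 and ATP5G2 with 5, and how reads matching several places were counted is not given in the sources used here.

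Some libraries stood apart. In replicate 2 of LNCaP PDA-66 12 h, 24.19% of the counts fell on the fifth of genes with the highest GC content, compared with 11.69% to 14.2% in the other 8 LNCaP samples. In CT1258 the same share was between 20.01% and 21.91% in the DMSO samples and between 12.97% and 15.97% after PDA-66, so that it moved with the treatment and with the depth. In PC-3 it ranged from 14.06% to 16.59% with no separation of the groups. The summed CPM of the genes described here was also higher in replicate 2 of CT1258 DMSO (7816.6) than in the other DMSO samples (5714.7 and 5768.2), and higher in replicate 3 of PC-3 DMSO (12255.5) than in replicate 2 (10726.9). Counts of called genes, medians and relations to GC content are given with and without the libraries that stood apart, and other values include them.

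Promoters of 7 genes with called changes are shown first, since the factors named above bind there. ATP5G2 and COX6A1 had the largest falls in PC-3 and NDUFA9 was the only gene called higher there. NDUFS7, UQCR11 and SDHA fell and ATP5J rose in CT1258. The sequences are the 100 bases before the transcription start of the human gene in RefSeq (GRCh38.p14, not the hg19 build of the counts), and the canine promoters were not analysed here. Capitals mark the NRF1 core GCGCANGCG, the ETS core CCGGAAG or the YY1 core AAGATGGCG on either strand.
ATP5G2 (chr12:53676084-53676183, minus strand, the first of 3 starts): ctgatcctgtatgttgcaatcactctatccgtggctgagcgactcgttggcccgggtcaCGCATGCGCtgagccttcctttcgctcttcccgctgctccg
COX6A1 (chr12:120438013-120438112, plus strand): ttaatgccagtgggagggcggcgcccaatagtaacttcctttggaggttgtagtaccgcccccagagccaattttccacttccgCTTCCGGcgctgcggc
NDUFA9 (chr12:4649014-4649113, plus strand): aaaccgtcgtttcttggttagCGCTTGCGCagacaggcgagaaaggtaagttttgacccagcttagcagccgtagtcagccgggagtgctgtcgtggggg
NDUFS7 (chr19:1383807-1383906, plus strand): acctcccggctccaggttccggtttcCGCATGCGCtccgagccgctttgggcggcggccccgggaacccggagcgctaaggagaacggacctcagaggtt
UQCR11 (chr19:1605463-1605562, minus strand): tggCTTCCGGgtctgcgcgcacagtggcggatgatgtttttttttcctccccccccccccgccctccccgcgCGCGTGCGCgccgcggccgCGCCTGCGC
SDHA (chr5:218220-218319, plus strand): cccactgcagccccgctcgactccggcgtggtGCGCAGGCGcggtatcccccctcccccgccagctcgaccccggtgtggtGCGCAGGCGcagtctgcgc
ATP5J (chr21:25735055-25735154, minus strand, the first of 2 starts): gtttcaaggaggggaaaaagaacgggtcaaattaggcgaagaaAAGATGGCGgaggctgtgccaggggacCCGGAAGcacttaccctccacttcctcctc

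Each of these 7 windows held at least 1 core, but they are a selection from the called genes. Over windows from 250 bases before to 50 bases after the start, found for 61 of the 74 genes, the NRF1 core occurred in 21 genes (34.4%), compared with 9.02% of 27305 genes with a window. The ETS core occurred in 20 genes (32.8%, against 12.16% of all) and the YY1 core in 9 (14.8%, against 2.14%). These longer windows held no core at the other starts of ATP5G2 or in NDUFV1, NDUFS8 and UQCRC2, which had called changes too. NDUFA7 and NDUFS1, also called and not shown, held a core. A match of letters is a description of the window and does not show that a factor bound there.

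The main question was how these genes responded to PDA-66 in each line. In CT1258, many fell, among them catalytic subunits of complex I. In PC-3, a few small subunits fell and 1 subunit rose. In LNCaP, no change was called and most log2 fold changes were slightly positive. The heat map gives the single genes.

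**Figure D1:**
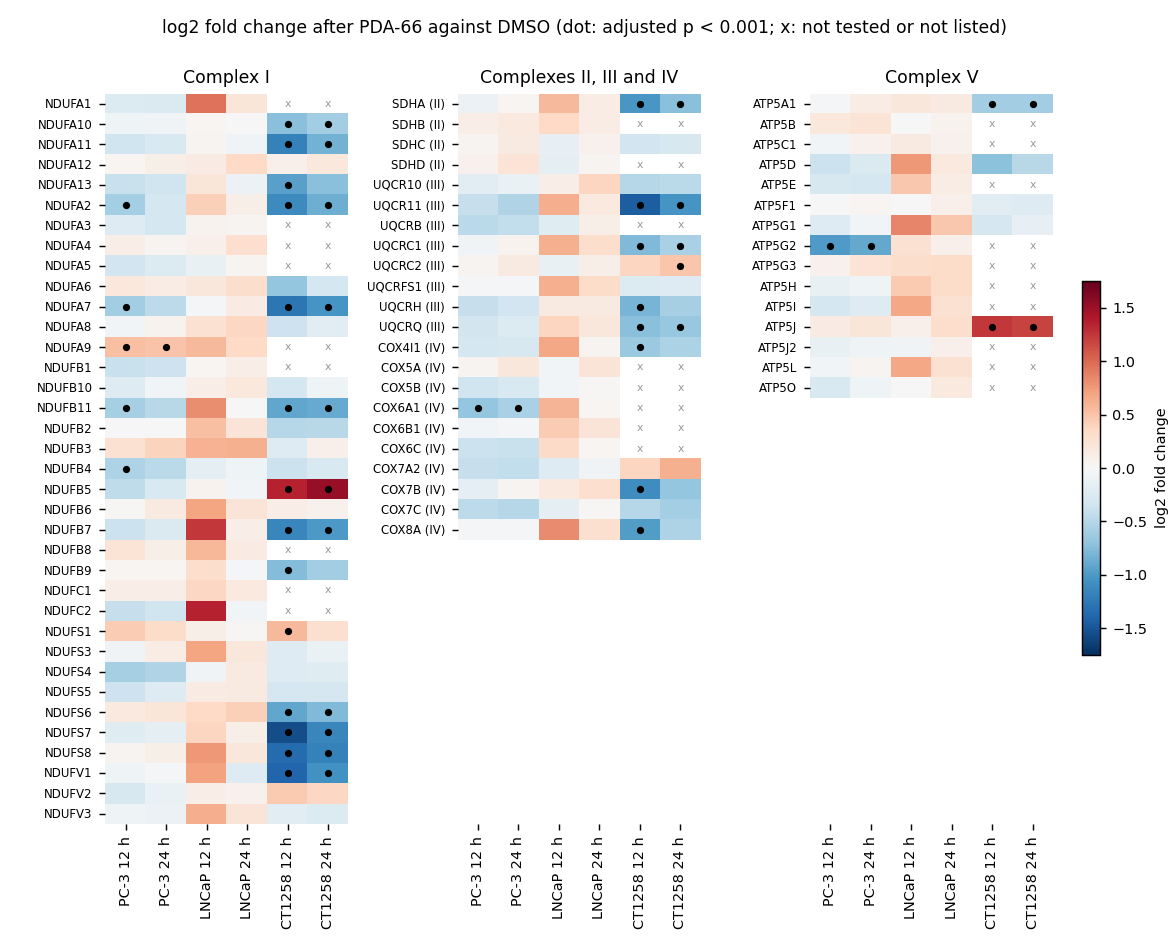
Heat map of the log2 fold change after PDA-66 against DMSO by gene (rows, by complex) in each cell line and at each time (columns). Black dots mark an adjusted p-value below 0.001 and grey crosses genes not listed or not tested in CT1258. The CT1258 columns are mostly blue, with NDUFB5 and ATP5J in red, and the LNCaP 12 h column is mostly pale red without dots.

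In PC-3 after 12 h, 1 of the 74 genes was called higher and 6 lower. Of all 13777 genes tested, 13% were called higher and 14.6% lower, so the share of these genes that was called was smaller than the background. Their median log2 fold change was -0.15, against -0.005 over all genes tested. After 24 h, 1 was called higher (8.88% of all genes) and 2 lower (10.5% of all genes), with a median of -0.07 against -0.01. After 12 h, 39 of the 74 lay below both controls in every PDA-66 sample (35.4% of all genes did) and 7 above (35.5%). After 24 h it was 25 below (31.3%) and 11 above (30.6%).

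ATP5G2, 1 of 3 genes for the same c subunit of the ATP synthase rotor, had the largest fall in PC-3. Its level was 248 and 314 CPM in the DMSO samples, compared with 138, 144 and 143 CPM after 12 h and 141, 149 and 166 CPM after 24 h. Every PDA-66 sample lay below both controls. The log2 fold change was -0.99 ± 0.111 (SE) after 12 h (edgeR adjusted p = 8.24e-06) and -0.89 after 24 h, and the gene stayed below the threshold in all 8 fits that left out 1 sample. The other genes for the c subunit were not called. For ATP5G1 the log2 fold changes at 12 h and 24 h were -0.23 and -0.05, and for ATP5G3 0.08 and 0.24. In LNCaP, ATP5G2 was at 247, 240 and 254 CPM in DMSO and at 264, 261 and 263 CPM after 24 h, with no call.

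COX6A1, the non-muscle isoform of subunit VIa of cytochrome c oxidase, fell in PC-3 from 149 and 174 CPM to 97.3, 104 and 103 CPM after 12 h (log2 fold change -0.68 ± 0.111, edgeR adjusted p = 0.000193). After 24 h it was at 98.8, 105 and 123 CPM, with a log2 fold change of -0.57. All PDA-66 samples were below both controls. The call after 12 h was lost in 4 of the 8 fits without 1 sample (highest adjusted p = 0.00153), and the call after 24 h in 6 of 8 (0.00651).

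4 accessory subunits of complex I fell in PC-3 after 12 h: NDUFA7 (log2 fold change -0.61), NDUFA2 (-0.60), NDUFB11 (-0.58) and NDUFB4 (-0.54). NDUFA7 was at 75.6 and 93.5 CPM in DMSO and at 53.7, 57.1 and 55.1 CPM after 12 h. At 24 h its values were 58.5, 59 and 67.2 CPM, still below both controls, without a call. The call of NDUFA7 was lost in 5 of 8 fits without 1 sample.

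NDUFA9, an accessory subunit near the site where complex I passes electrons to ubiquinone, was the only member that rose in PC-3. It was at 46 and 46.1 CPM in DMSO, at 68.6, 64.8 and 65.3 CPM after 12 h and at 62.2, 65.9 and 66.6 CPM after 24 h. The groups did not overlap. The log2 fold change was 0.52 ± 0.0938 after 12 h (edgeR adjusted p = 0.000377) and 0.49 after 24 h (0.000784). Without 1 sample at a time it stayed between 0.48 and 0.55, but the call was lost in 4 of 8 fits after 12 h and in 8 of 8 after 24 h, with an edgeR adjusted p-value of at most 0.00549.

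The PC-3 counts changed when single samples were left out, and when transcript length and GC content were corrected for together. Without replicate 2 of PC-3 DMSO, 17 genes were called after 12 h and 14 after 24 h, and without replicate 3 it was 2 and 1, with median log2 fold changes of -0.07 and 0.03. Without either unnumbered 12 h sample or replicate 3 of that group, 1 gene was called at 12 h and 1 at 24 h. Without replicate 2 of the 24 h group, 3 genes were called at 12 h and 1 at 24 h, and without its replicate 1, 1 at 24 h. The genes described here have short transcripts, with a median of 783.5 bases, compared with 2608 bases over all genes matched. In PC-3, the rank correlation of log2 fold change with transcript length over 13260 genes was 0.191 after 12 h. With changes corrected for transcript length and GC content, 10 of the 74 genes were called higher (20.5% of all genes) and 2 lower (17.4%) after 12 h. After 24 h, 11 were called higher (15.3%) and 1 lower (14%), and the medians were 0.09 and 0.13. ATP5G2 was the only gene called in the same direction in both fits, at -0.62 and -0.58 after correction.

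In CT1258, 22 of the 47 genes tested were called lower and 3 higher after 12 h, while 22.1% of all 9886 genes tested were called lower and 22.2% higher. After 24 h, 15 were called lower (17.2% of all genes) and 3 higher (16.6%). The median log2 fold change was -0.61 after 12 h and -0.48 after 24 h, against -0.002 and -0.007 over all genes. After 12 h, 32 of the 47 lay below all 3 controls in every PDA-66 sample (36.6% of all genes) and 6 above (36.1%), and after 24 h 28 (33.2%) and 5 (33.1%). In bulk libraries, fewer cells with a high level and less RNA per cell cannot be told apart.

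Among the catalytic core subunits of complex I, NDUFV1, NDUFS7 and NDUFS8 fell in CT1258 after 12 h. NDUFS7, which holds the last iron-sulfur cluster before ubiquinone, was at 102, 140 and 93 CPM in DMSO, at 34, 40.4 and 39.4 CPM after 12 h and at 60.4, 45.1 and 45.8 CPM after 24 h. Its log2 fold change was -1.56 ± 0.156 (edgeR adjusted p = 1.12e-06) and -1.15 ± 0.153 (2.38e-05). All PDA-66 samples were below all controls, and the values at 24 h lay above those at 12 h without a called difference.

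NDUFV1, the flavoprotein that takes electrons from NADH, was at 292, 406 and 312 CPM in DMSO, at 121, 125 and 142 CPM after 12 h and at 171, 157 and 156 CPM after 24 h (log2 fold changes -1.38 and -1.06). NDUFS8, another iron-sulfur subunit, was at 189, 251 and 188 CPM in DMSO, at 78.7, 79 and 90.2 CPM after 12 h and at 99.3, 91.4 and 85.3 CPM after 24 h (log2 fold changes -1.34 and -1.19). For both genes the groups did not overlap, and every fit without 1 sample kept the call of NDUFV1 at both times and of NDUFS8 at 24 h.

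The core did not move as a whole. NDUFS1, the largest core subunit, rose after 12 h from 143, 152 and 139 CPM to 230, 216 and 196 CPM (log2 fold change 0.57 ± 0.081, edgeR adjusted p = 2.8e-05). It was at 173, 174 and 178 CPM after 24 h, with a log2 fold change of 0.28 that was not called. NDUFS3 (-0.23) and NDUFV2 (0.45) were not called after 12 h. Of the accessory subunits tested, NDUFA2, NDUFA7, NDUFA10, NDUFA11, NDUFA13, NDUFB7, NDUFB9, NDUFB11 and NDUFS6 fell after 12 h, by between 0.74 and 1.26 on the log2 scale.

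NDUFB5, an accessory subunit of the membrane arm, moved the other way. It was at 3.57, 5.97 and 3.38 CPM in DMSO, at 11.6, 11.2 and 10 CPM after 12 h and at 11.3, 14.4 and 11.5 CPM after 24 h. Each sample had between 68 and 120 counts, so the gene was weakly expressed in CT1258. The log2 fold change was 1.34 ± 0.206 (edgeR adjusted p = 5.38e-05) and 1.52 ± 0.204 (2.39e-05), and no PDA-66 sample overlapped with the controls.

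In complex II, SDHA, the flavoprotein that oxidizes succinate, fell from 369, 444 and 382 CPM to 196, 201 and 196 CPM after 12 h and 248, 235 and 236 CPM after 24 h. The log2 fold change was -1.01 ± 0.0846 (edgeR adjusted p = 2.18e-07) and -0.73 ± 0.084 (6.48e-06). SDHC, a membrane anchor, was not called, with -0.34 and -0.28.

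In complex III, UQCR11, a small accessory subunit, was at 37.9, 65 and 38.8 CPM in DMSO, at 18.3, 15.9 and 18 CPM after 12 h and at 27.2, 21.2 and 20.6 CPM after 24 h. The log2 fold change was -1.44 ± 0.196 (edgeR adjusted p = 1.82e-05) and -1.03 ± 0.191 (0.000344). UQCRC1, UQCRH and UQCRQ fell too after 12 h, by 0.73 to 0.82 on the log2 scale. UQCRC2, a core protein like UQCRC1, rose after 24 h from 51.6, 56.2 and 59.7 CPM to 74.6, 75.5 and 84.4 CPM (log2 fold change 0.49 ± 0.0932, edgeR adjusted p = 0.000468). That call was lost in 5 of 9 fits without 1 sample.

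In complex IV, COX7B (log2 fold change -1.09), COX8A (-0.98) and COX4I1 (-0.65) fell after 12 h, and none of the 5 genes tested was called after 24 h. All 5 had an adjusted p-value below 0.05 at that time. COX7A2, a liver-type isoform, lay above its controls at 24 h (106, 108 and 99 CPM against 55.4, 87 and 61.6 CPM), with a log2 fold change of 0.62 and an edgeR adjusted p-value of 0.00107, just above the threshold.

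In complex V, ATP5A1, the alpha subunit of the catalytic head, was called lower at both times, with -0.61 at 12 h and -0.62 at the later time (edgeR adjusted p = 5.47e-05 and 7.78e-05). ATP5J, coupling factor 6 of the stalk, rose from 23.2, 27.1 and 20.9 CPM to 56.1, 55.2 and 56.1 CPM after 12 h and 53.3, 54.3 and 54.8 CPM after 24 h. The log2 fold change was 1.23 ± 0.103 (edgeR adjusted p = 2.25e-07) and 1.19 ± 0.104 (5.86e-07). In the human genome, 37.3% of the exon bases of ATP5J overlap with genes on the opposite strand, among them GABPA, and whether the counting used the strand is not given in the sources used here. In CT1258, GABPA, the DNA-binding subunit of GABP, rose as well, from 170, 144 and 155 CPM to 362, 351 and 312 CPM after 12 h (log2 fold change 1.13 ± 0.0918). In PC-3, ATP5J had log2 fold changes of 0.14 and 0.21 that were not called. NDUFS7 overlaps with 2 unnamed genes on the opposite strand over 51.4% of its exon bases.

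**Figure D2:**
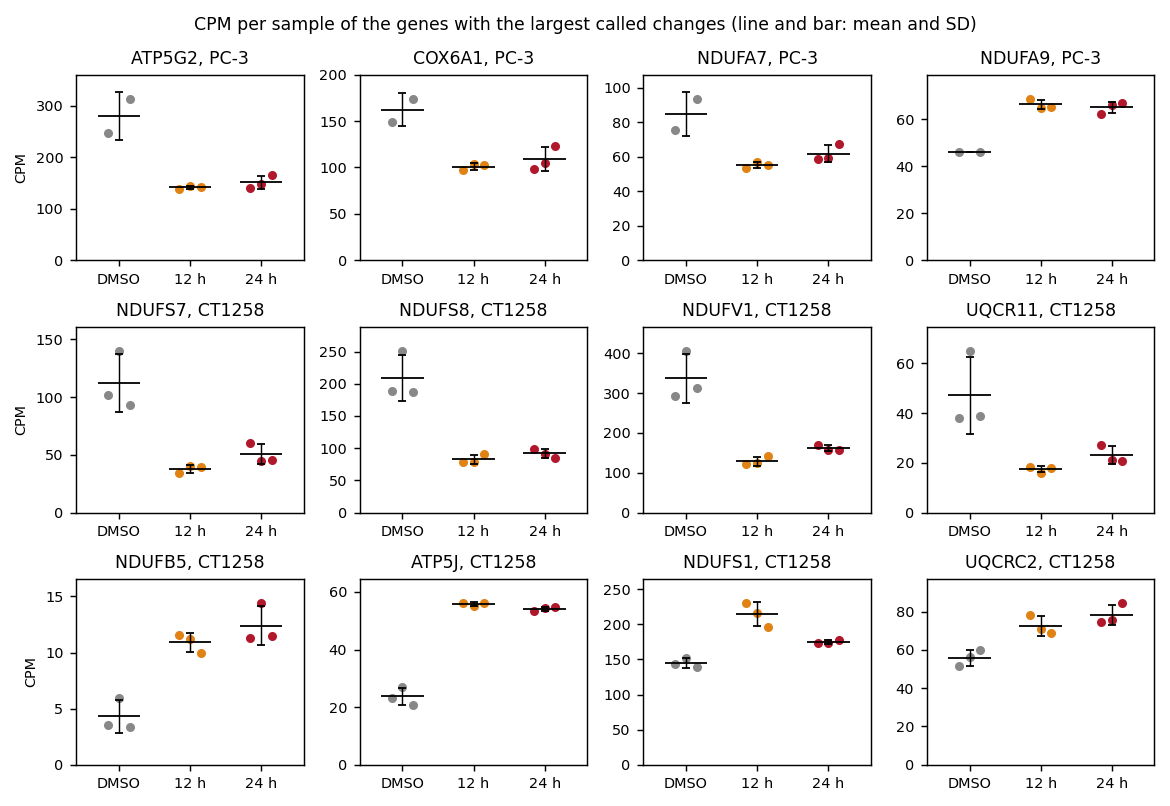
CPM per sample of the genes with the largest called changes in PC-3 (upper row) and CT1258 (middle and lower rows), with a point for each sample and the mean and SD as line and bar. ATP5G2, COX6A1 and NDUFA7 lie below both PC-3 controls at both times, NDUFA9 lies above them, and NDUFS7, NDUFS8, NDUFV1 and UQCR11 lie below all CT1258 controls.

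Summed over the genes of a complex, the levels in CT1258 were lower in every PDA-66 sample than in every DMSO sample for all 5 complexes. The 28 genes of complex I summed to 2760 ± 544 CPM in DMSO (SD, n = 3), 1859 ± 73.1 CPM after 12 h and 1994 ± 58.6 CPM after 24 h. The large SD of the controls came from replicate 2, at 3388.5 CPM. In PC-3, complex IV summed to 2007.2 and 2489.4 CPM in DMSO and to 1809 ± 32.3 CPM after 12 h, whereas complex II did not separate at that time (505.6 and 515.3 against 496.7 to 524.4 CPM). In LNCaP, complex I reached 5475.4 CPM in replicate 2 of the 12 h group, above all other LNCaP samples.

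**Figure D3:**
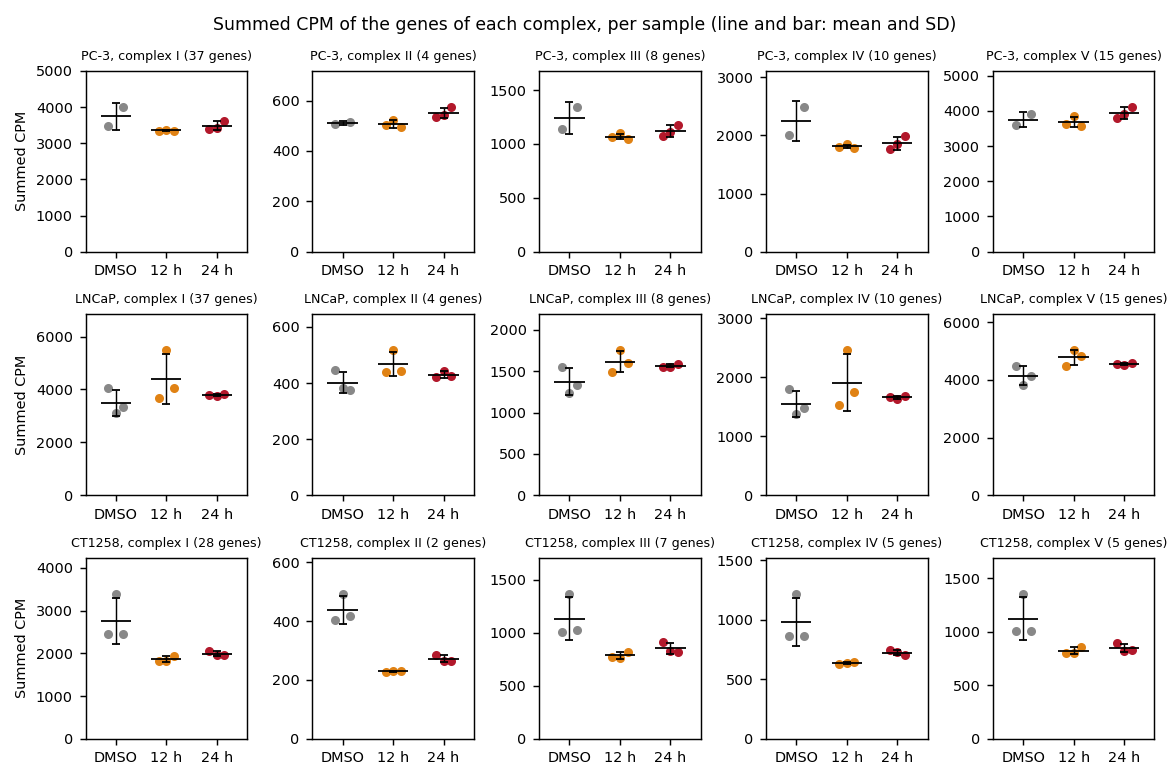
Summed CPM of the tested genes of each complex (columns) in each cell line (rows), with a point for each sample and the mean and SD as line and bar. All CT1258 points after PDA-66 lie below all DMSO points, and 1 LNCaP 12 h sample stands above the rest in complexes I and IV.

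Without replicate 2 of CT1258 DMSO, 33 genes were called after 12 h, 26 of them lower, and 32 after 24 h, 24 of them lower, with median log2 fold changes of -0.45 and -0.34. Without replicate 2 or replicate 3 of the 24 h group, 8 were called, 6 of them lower. After 12 h, the fits without 1 sample called between 20 and 33 genes. Thinning the DMSO counts to the depth of the PDA-66 samples gave 26 calls after 12 h and 22 after 24 h.

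The changes in CT1258 followed the GC content of the transcripts, read from the human gene of the same name since no canine annotation was used. Over 9238 genes, the rank correlation between log2 fold change and GC content was -0.642 after 12 h and -0.648 after 24 h, and over the 47 genes described here it was -0.682 and -0.625. These are correlations across genes, which are not independent replicates and share their libraries. The median log2 fold change of all genes ran from 0.59 in the fifth with the lowest GC content to -0.64 in the fifth with the highest after 12 h. The genes called lower after 12 h had a median GC content of 54.1% (41.4% to 66.9%), while the 3 called higher were between 39.8% and 41.8%. Without replicate 2 of CT1258 DMSO, it was -0.664 and -0.608 over the 47. In LNCaP the rank correlation after 12 h was 0.253 over all genes and 0.397 over the 74, and without replicate 2 of the 12 h group it turned to -0.192 and -0.222. In PC-3 after 12 h it was -0.07 and -0.163, and without replicate 3 of DMSO -0.114 and -0.334.

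**Figure D4:**
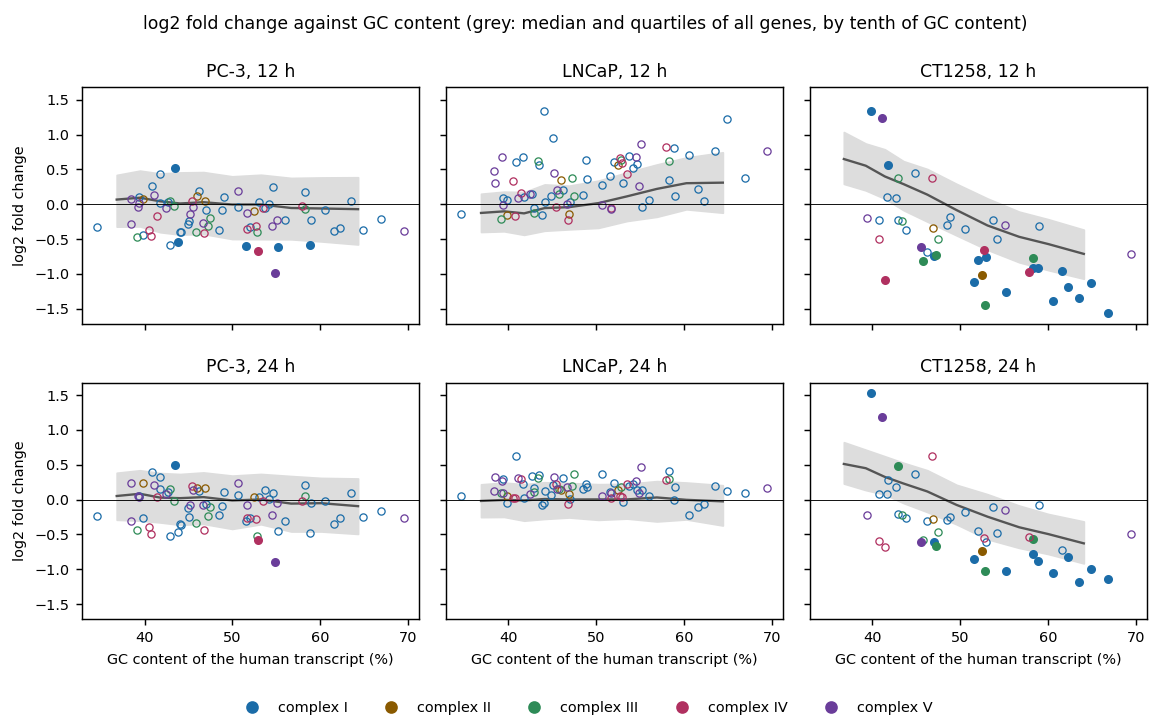
log2 fold change of each gene (points, filled where called, coloured by complex) against the GC content of the human transcript, for each line and time. The grey line and band are the median and quartiles of all genes in bins of GC content, which slope downwards in CT1258 and lie near 0 in PC-3 and in LNCaP after 24 h.

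With each library's trend over transcript length and GC content subtracted in CT1258, 22 genes were called lower and 4 higher after 12 h (18.8% and 17.7% of all genes). After 24 h, 14 were called lower and 4 higher (14% and 13.2%). The medians moved to -0.28 and -0.23. Of the 25 genes called after 12 h, 16 were called in the same direction after correction, and of the 18 called after 24 h it was 11. UQCR11 (-1.04), SDHA (-0.78), NDUFV1 (-0.70), NDUFS7 (-0.67) and ATP5J (1.01) were among those that kept their call after 12 h. NDUFS1 was no longer called (0.13, edgeR adjusted p = 0.341), nor was NDUFB5 after 12 h (0.77, 0.00572), which was called after 24 h (1.05). COX7A2 was called higher after correction, at 0.49 and 0.69. GC content, depth and treatment moved together in these libraries and cannot be told apart.

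In LNCaP, no gene of the 74 was called at either time. Over all 13156 genes tested, 0.0076% were called after 12 h and 0% after 24 h by the same edgeR test. At an unadjusted p-value below 0.05 it was 18 of the 74 after 12 h (30% of all genes) and 3 after 24 h (19.8%), so both shares were smaller than the background. These backgrounds depended on 1 library. Without replicate 2 of the 12 h group, edgeR called 162 of 13335 genes higher and 99 lower after 12 h. After 24 h it called 54 higher and 51 lower, and none of the 74 was called at either time. An unadjusted p-value below 0.05 was then found for 18 of the 74 after 12 h (42.5% of all genes) and 16 after 24 h (41.3%). With all samples, the edgeR exact test and the DESeq2 Wald test called none of the 74. On the same samples, limma voom with sample quality weights called 4 after 12 h and 1 after 24 h. The common biological coefficient of variation was 0.240 here, while PC-3 had 0.0972 and CT1258 0.100.

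The values in LNCaP nevertheless leaned to one side, with medians of 0.29 (12 h) and 0.15 (24 h) for the log2 fold change, against 0.03 and -0.01 over all genes, and 59 and 65 of the 74 above 0 (6863 and 6413 of 13156 genes). Without replicate 2 of the 12 h group, the median after 12 h was 0.16 against -0.02 over all genes, and 61 of the 74 lay above 0. After 12 h, 8 genes lay above all controls in every sample (13.5% of all genes) and 1 below (14.6%), and after 24 h it was 15 (23.1%) and 1 (21.6%). ATP5G1 and NDUFA9 had the smallest p-values after 12 h. ATP5G1 was at 72.7, 50 and 58.9 CPM in DMSO and at 88.3, 141 and 100 CPM after 12 h (log2 fold change 0.86 ± 0.211, edgeR adjusted p = 0.0358). NDUFA9 was at 91.6, 74.1 and 73.9 CPM in DMSO and at 106, 139 and 108 CPM after 12 h (0.56 ± 0.164, adjusted p = 0.061). Both genes were highest in replicate 2, and neither overlapped with the controls. Without 1 sample at a time, the edgeR adjusted p-value ranged from 0.00938 to 0.138 for ATP5G1 and from 0.0181 to 0.201 for NDUFA9, and none of the 74 was called.

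After 24 h, the smallest p-values in LNCaP belonged to NDUFS6 and NDUFB3, accessory subunits of complex I. NDUFS6 was at 81.2, 56.9 and 65.4 CPM in DMSO and at 90.3, 92.5 and 88.3 CPM after 24 h (log2 fold change 0.41 ± 0.162, edgeR adjusted p = 0.192). NDUFB3 was at 49.3, 28.2 and 27.8 CPM in DMSO and at 50.2, 55.6 and 56.9 CPM after 24 h (0.63 ± 0.254, adjusted p = 0.207). The groups did not overlap for either, though replicate 1 of DMSO came close to the treated samples. The deviating replicate 2 of the 12 h group held 125 CPM of NDUFC2, against 23.4 and 25.4 CPM in the other 12 h samples, and 358 CPM of NDUFB7, against 69.2 and 88.1 CPM.

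Between 12 h and 24 h of PDA-66, edgeR called none of these genes in any line, where PC-3 had 1.41% of all genes called, LNCaP 0% and CT1258 2.13%. At an unadjusted p-value below 0.05 PC-3 had 3 of these genes (24.5% of all genes), LNCaP had 1 (6.36%) and CT1258 had 10 (32.5%). The edgeR exact test called 6 and limma voom 7 in CT1258, limma voom called 1 in PC-3, and DESeq2 called none in any line. In CT1258, 38 of the 47 lay above 0 in this comparison, with a median of 0.14, and in PC-3 59 of 74, with a median of 0.06. The same values over all genes are not given here, so these counts cannot be read as particular to this group.

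Whether the response differed between lines was tested directly for the 49 genes listed in all tables. Of these, UQCRB and NDUFC1 had not passed the filter on low counts in CT1258 alone, but passed it in the joint fit. Neither was called there. The joint fit tested 11736 genes and that of CT1258 alone 9886. The shares of all genes given here therefore also include genes that had failed the filter in CT1258. The response is the log2 fold change of PDA-66 against DMSO, and a difference is that of the first line minus that of the second. Between LNCaP and CT1258 after 12 h, 17 of the 49 differences were called above 0 and 1 below, compared with 12.8% of all 11736 genes called in either direction. After 24 h it was 1 above and 1 below (3.44% of all genes). Between PC-3 and CT1258, 2 were called above and 1 below 0 after 12 h (9.33% of all genes), and 2 below after 24 h (4.79%). Between PC-3 and LNCaP none was called at 12 h (3.57% of all genes) or 24 h (1.23%). For PC-3 and LNCaP, the edgeR test gave 21 and 6 of the 49 genes at an unadjusted p-value below 0.05 (33.7% and 23.5% of all genes), and the DESeq2 Wald test called 1 and 0.

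These counts rested on single libraries. Without replicate 2 of LNCaP PDA-66 12 h, 12 differences between PC-3 and CT1258 were called after 12 h and 8 after 24 h, and 17 between LNCaP and CT1258 after 24 h. Between LNCaP and CT1258 after 12 h, 7 were called without replicate 2 of LNCaP DMSO, 11 without its replicate 3 and 11 without replicate 2 of CT1258 DMSO. Over all fits without 1 sample, the ranges were 7 to 27 for that comparison, 0 to 17 for the same lines after 24 h, 1 to 12 for PC-3 and CT1258 after 12 h and 0 to 8 after 24 h.

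NDUFB7 and NDUFS8 had the largest called differences in response. For NDUFB7, an accessory subunit on the intermembrane side, the log2 fold change in the fit of each line was 1.23 in LNCaP and -1.14 in CT1258 after 12 h, and the difference in the joint fit was 2.29 ± 0.499 (edgeR adjusted p = 0.000939). The LNCaP value rested on 1 sample, with 358 CPM against 69.2 and 88.1 CPM in the others and 80.5, 58.8 and 80 CPM in DMSO. The call was lost in 22 of 26 fits without 1 sample, where the difference was as low as 1.20. For NDUFS8, the log2 fold changes were 0.76 and -1.34, with a difference of 2.03 ± 0.323 (edgeR adjusted p = 4.73e-05) that was called in all 26 such fits and ranged from 1.48 to 2.44.

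NDUFB5 differed in its response between CT1258 and both human lines at both times. The difference between PC-3 and CT1258 was -1.80 ± 0.275 after 12 h (edgeR adjusted p = 2.79e-05) and -1.81 ± 0.274 after 24 h (5.71e-05). Between LNCaP and CT1258 it was -1.33 and -1.60. With the correction for transcript length and GC content, the calls against PC-3 remained (-1.34 and -1.45), whereas those against LNCaP were lost (-0.61, edgeR adjusted p = 0.0718, and -1.14, 0.00193). In PC-3, NDUFB5 was at 124 and 166 CPM in DMSO and at 114, 101 and 104 CPM after 12 h, with no call.

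NDUFA2, NDUFA7 and NDUFB11 were called lower after 12 h in both PC-3 and CT1258, out of 47 genes tested in both. Of all genes, 14.6% were called lower in PC-3 and 22.1% in CT1258, and the share called lower in both is not given here. With the correction for transcript length and GC content, none of the 3 was called in PC-3 after 12 h. After 24 h no gene was called in both lines, and none was called in opposite directions at either time. For NDUFA7 the log2 fold change after 12 h was -0.61 in PC-3 and -1.26 in CT1258, where it fell from 83.6, 131 and 88 CPM to 36.9, 38.5 and 50.8 CPM. For NDUFB11 it was -0.58 and -0.91, and for NDUFA2 -0.60 and -1.11.

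The controls of the 2 human lines were compared on a common scale. Of the genes described here, 12 of the 74 genes were called higher and 5 lower in PC-3 DMSO than in LNCaP DMSO, against 21.7% and 19.1% of all 15018 genes tested, so both shares were smaller than the background. Complex IV had 3 of 10 genes called higher and none lower, and complex III had none of 8 called (3 at an unadjusted p-value below 0.05, as 66.9% of all genes were).

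Complex II was split. SDHA was at 290 and 276 CPM in PC-3 and at 153, 120 and 133 CPM in LNCaP (log2 fold change 1.06 ± 0.184, edgeR adjusted p = 8.7e-05). SDHC was at 32.3 and 30.5 CPM in PC-3 and at 106, 93.9 and 84.2 CPM in LNCaP (-1.59 ± 0.19, adjusted p = 1.39e-06). SDHC had the largest called difference of the 74 genes, and the lines did not overlap for either gene.

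Complex V was split too. ATP5G1 (133 and 140 CPM against 72.5, 49.7 and 59.1 CPM) and ATP5G3 (353 and 432 CPM against 233, 163 and 167 CPM), which encode the c subunit, were higher in PC-3, with log2 fold changes of 1.18 and 1.06. ATP5A1, the alpha subunit, was at 428 and 401 CPM against 975, 792 and 855 CPM (-1.08), and ATP5C1, the gamma subunit of the central stalk, at 105 and 116 CPM against 242, 226 and 216 CPM (-1.04). COX7B of complex IV was at 200 and 227 CPM in PC-3 and at 119, 79.3 and 87.9 CPM in LNCaP (1.16). The call of COX7B was lost in 4 of 17 fits without 1 sample.

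**Figure D5:**
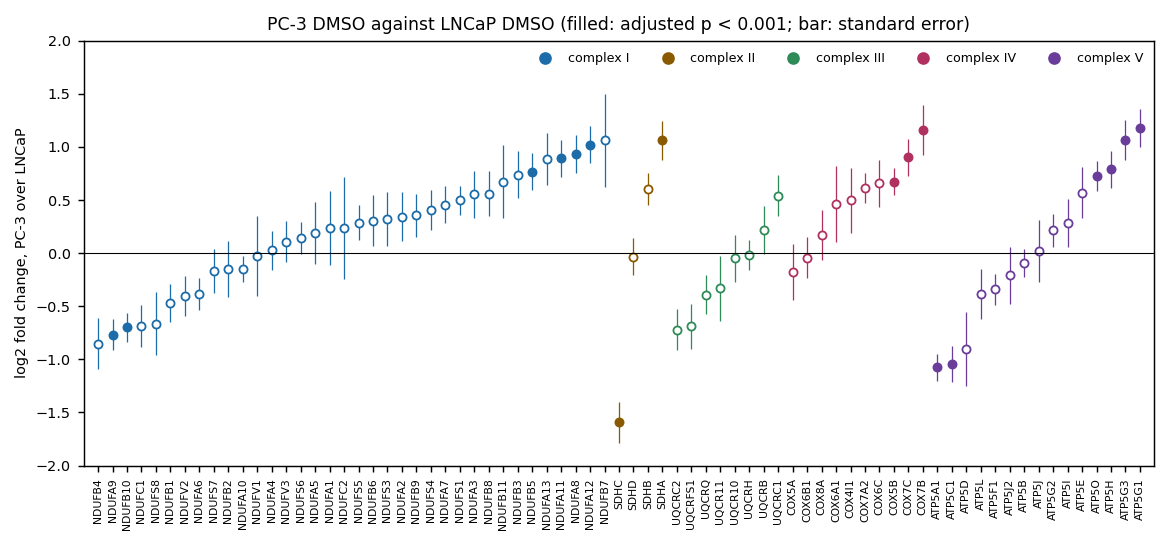
log2 fold change of PC-3 DMSO over LNCaP DMSO by gene, ordered within each complex, with the standard error as bar and filled points for an adjusted p-value below 0.001. SDHC lies lowest and ATP5G1 highest, and the points of complexes I and V lie on both sides of 0.

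Without replicate 3 of PC-3 DMSO, 5 genes were called between the lines. It was 11 without replicate 2 of PC-3 DMSO, 9 without replicate 2 of LNCaP DMSO and 10 without its replicate 3, and without replicate 2 of LNCaP PDA-66 12 h, which enters through the shared estimate of the spread, 34 were. Normalization to library size alone gave 5 higher and 5 lower. Correction for transcript length and GC content gave 14 higher and 13 lower, and 15 of the 17 calls remained.

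Of other lists tied to these complexes, the assembly factors had 9 of 31 genes called higher and 6 lower in CT1258 after 12 h, where all genes had 22.2% and 22.1%. LYRM7, a complex III factor, rose by 2.15 on the log2 scale, and SURF1, a complex IV factor, fell by 1.67. After 24 h LYRM7 was not called (1.70, edgeR adjusted p = 0.00108). Values of this and the following lists come from fits with all samples and without the correction for transcript length and GC content. How far they depend on single samples or on GC content is not given here. SURF1 fell in PC-3 as well (-0.73 after 12 h), and so did COA5, another complex IV factor (-0.95), among 5 of 43 called lower and 2 higher (14.6% and 13% of all genes). In LNCaP, none of the 43 was called.

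The tricarboxylic acid cycle supplies NADH and succinate to the complexes. Of its genes in PC-3, 7 of 18 were called higher and 1 lower after 12 h (13% and 14.6% of all genes), and 6 higher and 0 lower after 24 h (8.88% and 10.5%). IDH3A (log2 fold change 0.75 after 12 h) and FH (0.58 after 12 h) are examples. In CT1258, 1 of 13 was called higher and 4 lower after 12 h (22.2% and 22.1% of all genes), with IDH3B at -1.33 and IDH2 at -1.23. The difference between the lines was not tested for this list. In LNCaP 16 of 18 values were above 0 after 12 h, with no call, and the count over all genes is given above.

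Of the mitochondrial ribosomal proteins, which translate the mitochondrial subunits, 16 of 57 were called lower and 6 higher in CT1258 after 12 h (22.1% and 22.2% of all genes), with a median of -0.26. In PC-3, 4 of 75 were called lower and 3 higher (14.6% and 13%). In LNCaP none of 74 was called after 12 h, with 67 values above 0, and the count over all genes is given above. Of 14 nuclear regulators of respiratory genes, 3 were called higher and 5 lower in CT1258 after 12 h, against the same 22.2% and 22.1%. The 3 called higher were GABPA (1.13), GABPB1 (0.78) and TFAM (0.76). Among those called lower, ESRRA was at -0.91 after 12 h and -0.97 after 24 h. POLRMT, the mitochondrial RNA polymerase, was at -1.09 and -0.76.

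The table of CT1258 also lists 13 entries named after the mitochondrial DNA-encoded subunits, which were matched by name after the table had been seen. All 13 had a log2 fold change above 0 at both times, while most of the nuclear genes described here were below 0. Depth and GC content moved with the treatment in these libraries, and their part in this contrast was not tested. After 12 h, 8 were called higher (22.2% of all genes), and after 24 h 11 (16.6%). The entry for ND2 of complex I was at 1840, 1640 and 1650 CPM in DMSO, 4610, 4350 and 3160 CPM after 12 h and 3830, 2880 and 4010 CPM after 24 h (log2 fold changes 1.24 and 1.06). The entry for COX1, the catalytic subunit of complex IV, was at 9920, 11700 and 9260 CPM in DMSO and at 21800, 21600 and 15900 CPM after 12 h (0.94). After 24 h it was at 22500, 19100 and 23400 CPM (1.07). The 13 entries held between 3.732% and 4.29% of the counts in DMSO, between 5.426% and 7.169% after 12 h and between 6.3% and 7.944% after 24 h, so the groups did not overlap.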

How the data were processed

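RNA-seq counts were analysed for 26 of 27 samples of PC-3, LNCaP and CT1258 cells. The values are read counts per gene that the authors deposited, without normalization. Per the study's methods, poly(A) RNA was sequenced as 75 bp single reads, human reads were aligned to hg19 with STAR 2.3.1s and canine reads to CanFam3.1 with BWA, and the submitters' processing notes name edgeR 3.14.0. Strand use and the treatment of reads with several matches are not given in the sources used here.

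Groups were taken from the sample labels. For each cell line, its 3 groups were fitted together with the quasi-likelihood test of edgeR 4.0.16 (R 4.3.3) after filterByExpr and TMM normalization. The p-values were adjusted over all genes tested (Benjamini-Hochberg), and a gene was called at an adjusted p below 0.001. Differences between lines in the response were tested as interactions in a joint fit of 9 groups, and PC-3 and LNCaP controls in a fit of both lines. The tests were tried on simulated data first. Alternatives were the edgeR exact test, DESeq2 1.42.0, limma 3.58.1 voom with sample weights, library size only, no filter, a looser threshold, a replicate block, thinned CT1258 controls and leaving out each sample. A correction for transcript length and GC content (splines with 4 degrees of freedom, human annotation) was in part added after the data had been seen. Motifs were searched in RefSeq promoters with Python 3.11.15.

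The genes, the other lists, the markers and the tests were chosen with earlier results of these data known. Described in full were the 3 called genes with the largest rise and the 3 with the largest fall per comparison with DMSO (without a call, the 2 with the smallest p), the 2 largest differences in response, the 3 largest differences in each direction between PC-3 and LNCaP controls, and 2 genes per other list. Genes named beyond this rule were chosen after their values had been seen. Some single genes are not reported here by name or drawn one by one, though counts and medians include them.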

Additional observations from a re-analysis of the deposited data

Results flagged for a closer look

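The following responses to PDA-66 differed between cell lines by the interaction test of edgeR (adjusted p below 0.001), among the genes described in full. Each value is the response of the first line minus that of the second on the log2 scale.

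NDUFB5 differed between PC-3 and CT1258 by -1.80 after 12 h and by -1.81 after 24 h, and between LNCaP and CT1258 by -1.33 and -1.60. NDUFS6 differed between PC-3 and CT1258 by 1.07 after 12 h, and between LNCaP and CT1258 by 1.22 after 12 h and 1.16 after 24 h. NDUFS7 differed between PC-3 and CT1258 by 1.33 and between LNCaP and CT1258 by 1.87, both after 12 h. With the correction for transcript length and GC content, the calls of NDUFB5 between LNCaP and CT1258 and all 3 calls of NDUFS6 were lost (0.84 against PC-3 after 12 h, and 0.55 and 0.71 against LNCaP), while those of NDUFB5 between PC-3 and CT1258 and both of NDUFS7 remained.

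Between LNCaP and CT1258 after 12 h, NDUFB7 differed by 2.29, NDUFS8 by 2.03, NDUFV1 by 2.02, UQCR11 by 2.01, NDUFA7 by 1.18, ATP5G1 by 1.10 and ATP5A1 by 0.76. The correction ended the calls of NDUFA7 (0.64) and ATP5G1 (0.47), and the other 5 remained. In replicate 2 of LNCaP PDA-66 12 h, NDUFV1 was at 442 CPM, against 118 and 123 CPM in the other 12 h samples, and UQCR11 at 331 CPM, against 114 and 138 CPM. NDUFA7 was not high in that sample, at 52.9 CPM against 60 and 71 CPM.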

How the results depend on the processing

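Counts of called genes moved by more than 1.5 times under these alternatives. With DESeq2, 11 genes were called in PC-3 after 12 h and 9 after 24 h, 28 in CT1258 after 24 h, 5 and 4 responses between PC-3 and CT1258 (12 h and 24 h), 1 between PC-3 and LNCaP after 12 h and 7 between LNCaP and CT1258 after 24 h. With limma voom it was 4 and 1 in LNCaP, 34 in CT1258 after 24 h, and 1 in PC-3 and 7 in CT1258 between times, where the edgeR exact test gave 6. With the correction for length and GC content, it was 12 and 12 in PC-3, 1 between times in CT1258, 1 response between PC-3 and LNCaP and 12 between PC-3 and CT1258 after 12 h, 9 between LNCaP and CT1258 after 24 h (with 0 of the 2 calls without it among them) and 27 between the controls. Without the filter, 4 responses were called between LNCaP and CT1258 after 24 h, and with library size only 10 genes between the controls. At an adjusted p below 0.05, it was 32 and 25 in PC-3, 1 in LNCaP after 12 h, 32 in CT1258 after 24 h, 4 between times in CT1258, responses of 9 (PC-3 and LNCaP, 12 h), 17 and 9 (PC-3 and CT1258), 36 and 20 (LNCaP and CT1258), and 38 between the controls. The causes were not tested.

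Leaving out 1 sample at a time gave 1 to 17 and 1 to 14 calls in PC-3, 20 to 33 and 8 to 32 in CT1258, 0 to 4 between times in CT1258, 0 to 2 responses between PC-3 and LNCaP after 12 h, 1 to 12 and 0 to 8 between PC-3 and CT1258, 7 to 27 and 0 to 17 between LNCaP and CT1258, and 5 to 34 between the controls. In LNCaP it was 0 in each of these fits. Without a PC-3 DMSO sample, the lone control was assumed to vary like the other groups.

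Same-numbered samples did not deviate together (correlations from -0.253 to 0.186 in CT1258, from -0.477 to 0.262 in LNCaP and from -0.149 to 0.147 in PC-3). The labels do not say whether they shared a culture, and correlations over so few pairs cannot decide it. With the replicate number as a block, 1 gene was called in PC-3 after 24 h, 25 and 19 in CT1258 and 0 in LNCaP. For PC-3 that fit held only replicates 2 and 3 of DMSO and of the 24 h group, so fewer samples entered it as well. Of 586 values of 31 results for single genes, 506 kept their direction and side of the threshold, 78 lost and 2 gained a call, and 0 changed direction.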
